A study of Mus musculus with 8 samples.

Results

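The genes described here encode RNA-binding proteins that set how long messenger RNAs last, with HuR (Elavl1) at their head. They were the 10 rows of the count table whose Ensembl identifiers matched Elavl1, Zfp36, Zfp36l1, Zfp36l2, Khsrp, Hnrnpd, Tia1, Tial1, Celf1 or Zc3h12a, out of 49315 genes in all. All 10 passed the filter on low counts, which left 13051 genes to be tested. The libraries were total RNA from bone marrow-derived macrophages (BMDMs) of C57BL/6 mice, grown in 10 ng/ml M-CSF and transfected with 25 nM of a gapmeR, an antisense oligonucleotide that makes RNase H cut the RNA it pairs with. There were 4 libraries with negative control #1 (replicates 2, 5, 6 and 7) and 4 with the gapmeR against MAARS (replicates 9, 11, 13 and 15), a macrophage long noncoding RNA annotated as Gm14461. The age of the mice, and whether each library came from another mouse or culture, are not given in the sources used here, so that p-values measure the spread between these libraries only.

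AU-rich elements are stretches of U and A in the 3′ untranslated region (3′ UTR) of short-lived mRNAs, above all those of cytokines and early-response genes. HuR binds them and protects the mRNA, and it shuttles between nucleus and cytosol. Tristetraprolin (Zfp36) and its paralogs, KSRP (Khsrp) and AUF1 (Hnrnpd) bind the same elements and recruit enzymes that remove the poly(A) tail and degrade the message, while TIA-1 (Tia1) and TIAR (Tial1) silence translation. CUGBP1 (Celf1) and Regnase-1 (Zc3h12a) do not bind AU-rich elements in the strict sense, since the first prefers GU-rich elements and the second is an endonuclease that cuts at stem-loops. The study was concerned with MAARS and HuR, and the question here was which genes of this group changed in their own RNA level when MAARS was lowered.

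The mRNAs of 4 of the 10 members themselves carry the nonamer TTATTTATT, the core of an AU-rich element, in their longest annotated 3′ UTR (GENCODE M21, GRCm38, overlapping matches counted on the sense strand). The sites below are shown because this nonamer is the core of the element that HuR and the Zfp36 family bind, and they stand beside those of Tnf, a classic target, and of MAARS. Each line holds up to 30 bases, 5′ to 3′ in DNA letters, with the nonamers in capitals.
Elavl1: aaaTTATTTATTTATTTATTTATTtttatt
Zfp36: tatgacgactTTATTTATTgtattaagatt
Zfp36l1: aactgttggaTTATTTATTttagaaattct
Zfp36l2: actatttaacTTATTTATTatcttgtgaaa
Tnf: atttaTTATTTATTTATTATTTATTTATTt
MAARS: tatgtgctgaTTATTTATTcacttaaaaa

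The Elavl1 window lies at chr8:4285780-4285809 on the minus strand, at bases 3791 to 3820 of a 3′ UTR of 4218 nt, and holds 4 overlapping nonamers. The whole 3′ UTR of Elavl1 held 8, a number reached by 18 of the 21027 annotated 3′ UTRs. Zfp36 (chr7:28376950-28376979, minus strand), Zfp36l1 (chr12:80108166-80108195, minus strand) and Zfp36l2 (chr17:84184913-84184942, minus strand) each had 1 nonamer, in 3′ UTRs of 774, 1835 and 1822 nt. Tnf had 5, of which 4 stand in the window at chr17:35199676-35199705 on the minus strand. At least 1 nonamer was found in 7.66% of all annotated 3′ UTRs, and in 18.3%, 4.28%, 10.4% and 10.3% of those within 0.8 to 1.3 times the length of the 3′ UTRs of Elavl1, Zfp36, Zfp36l1 and Zfp36l2. The other 6 members had no nonamer in their longest 3′ UTR, although all of them had the pentamer ATTTA, from 1 in Khsrp to 10 in Hnrnpd and Celf1. The 1780-nt MAARS transcript held 1 nonamer, starting at base 1671, and 3 ATTTA pentamers. Of 1235 long intergenic noncoding RNAs of similar length, 4.94% had a nonamer, and their median was 1.38 pentamers per kb against 1.69 in MAARS. Such a match is a stretch of letters, not a measured binding site. The study listed further AU-rich motifs in MAARS, among them U-rich ones that the nonamer and the pentamer miss. It also measured the binding of MAARS to HuR by RNA pulldown and HuR immunoprecipitation, and the pulldown fell when these motifs were mutated.

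The libraries held 19287279 to 20567123 counts with control gapmeR and 20839671 to 24541205 with MAARS gapmeR, so that every MAARS library was the deeper. MAARS itself had 238, 296, 240 and 249 counts in the control libraries and 163, 161, 159 and 135 in the MAARS libraries. It fell by 0.95 on the log2 scale (SE 0.11; edgeR quasi-likelihood test, Benjamini-Hochberg adjusted p = 5.8e-05), and the groups did not overlap. All 8 macrophage markers were detected, with a summed level of 13836 to 17118 counts per 1000000 library counts (CPM, TMM-scaled) in control and 17011 to 20241 in MAARS libraries, and 5 of them were called higher and 2 lower. Neutrophil markers summed to 52.5 to 148 CPM and then 55.5 to 88.7, and stromal markers to 438 to 1006 and then 691 to 1193, with none called. The T cell, B cell, dendritic cell, mast cell and erythroid lists summed to under 3 CPM in each library, with Cd3g and Mcpt4 at 0 in all. The 3 endothelial markers summed to 15.998 to 20.2 CPM in control and 5.88 to 7.08 CPM in MAARS libraries, with Kdr called lower. Their part in the results was not tested. In bulk RNA, fewer cells of a type and less RNA per cell cannot be told apart.

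With MAARS gapmeR the HuR transcript did not pass the test of a difference, while the other members went both ways. A gene was called at an adjusted p under 0.05. By this rule 4 of the 10 rose (Zfp36l1, Khsrp, Celf1 and Tial1), against 21.3% of all genes tested, and 4 fell (Zc3h12a, Zfp36, Tia1 and Hnrnpd), against 24%. Called in either direction were 8 of the 10, against 45.4% of all genes, and Elavl1 and Zfp36l2 did not pass. The median log2 fold change over the 10 was 0.08, against 0.01 over all genes tested. Scaling by library totals alone turned the overall balance from 2782 higher and 3137 lower to 3631 higher and 2331 lower, and with it the members to 5 higher and 2 lower. The same 5 members, Zfp36, Zfp36l1, Khsrp, Celf1 and Zc3h12a, were called in the main fit and in all 17 alternative fits. The share of all genes called in every fit is not given here, so this count does not set the members apart. The plot of log2 fold changes sets the estimate of each member beside its range over those fits.

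**Figure D1:**
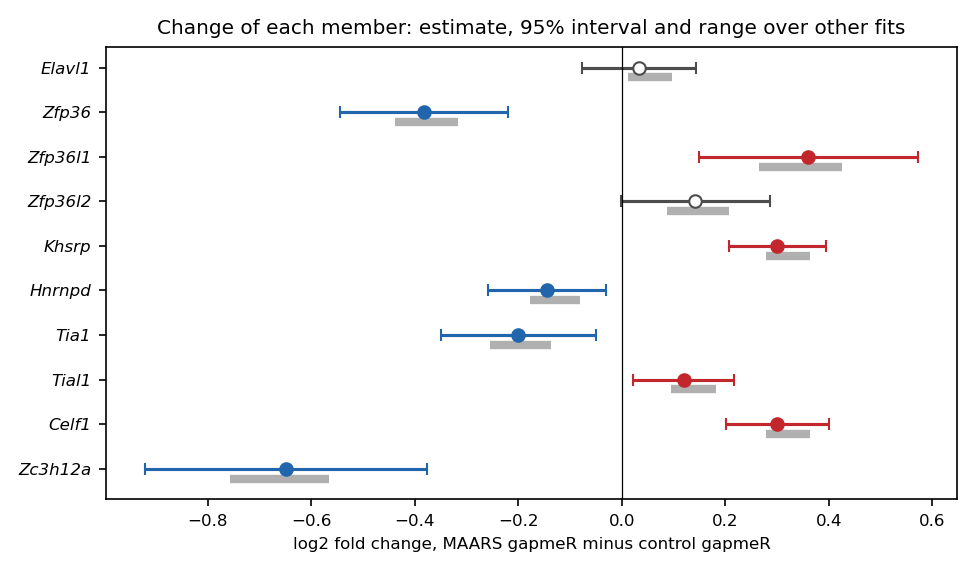
Log2 fold change (x axis, MAARS gapmeR minus control gapmeR) of each member (y axis), with its 95% interval from edgeR. Filled red and blue points passed an adjusted p under 0.05, open points did not, and grey bars give the range over 17 alternative fits. Zc3h12a lies lowest at -0.65 and Elavl1 sits at 0.03.

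HuR (Elavl1, ENSMUSG00000040028, chr8:4285382-4325413, minus strand) stabilises AU-rich mRNAs. Its control libraries had 46.6, 46.0, 47.1 and 47.9 CPM in the order of replicates 2, 5, 6 and 7, and its MAARS libraries 44.6, 48.9, 48.3 and 50.1 CPM in the order of replicates 9, 11, 13 and 15. The control values fell within the range of the MAARS values, which had both the lowest and the highest of the 8. The difference was 0.03 on the log2 scale (SE 0.050, 95% interval -0.08 to 0.14), with an edgeR adjusted p = 0.614 and an exact two-sided permutation p = 0.429. On the linear scale the estimate is a rise of 2.33%. No alternative fit called it, and its log2 fold change ranged from 0.01 to 0.10 across them. A part of its exons, 1.97%, lies opposite Ccl25, which had 63 to 115 counts per library against 870 to 1228 for Elavl1.

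Over the 8 libraries, the genes whose pattern lay nearest to that of Elavl1 were Anapc7, Dnajb11 and Sf1. Their root mean square difference from it, in log2 CPM centred on the mean of each gene, was 0.02, 0.02 and 0.03. None of these 3 was called (edgeR adjusted p = 0.304, 0.399 and 0.832), which follows from picking them by their pattern over the same libraries.

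Tristetraprolin (Zfp36, ENSMUSG00000044786, chr7:28376784-28380253, minus strand) binds the nonamer and brings in the CCR4-NOT deadenylase. It had 80.1, 101.8, 95.3 and 90.2 CPM with control gapmeR and 69.4, 69.99, 77.0 and 65.4 CPM with MAARS gapmeR. All MAARS libraries lay below all control libraries. Zfp36 fell by 0.38 on the log2 scale (SE 0.074, 95% interval -0.55 to -0.22; edgeR adjusted p = 0.00154), and the exact permutation p was 0.0286, the smallest that 4 against 4 libraries allow.

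Its paralog Zfp36l1 (BRF1, ENSMUSG00000021127, chr12:80107754-80113013, minus strand) recognises the same element. Control values were 46.6, 60.4, 58.4 and 54.3 CPM and MAARS values were 83.7, 63.1, 67.2 and 68.2 CPM. The groups did not overlap, with MAARS replicate 9 standing above the rest. Zfp36l1 rose by 0.36 on the log2 scale (SE 0.097; edgeR adjusted p = 0.0104). More than any other member it shares its locus, since 55.9% of its exonic bases lie opposite the noncoding Gm26669. That gene had 5 to 14 counts per library against 910 to 1769 for Zfp36l1, and the pseudogene Zfp36l1-ps had 0 or 1, but the strand setting of the counting is not given in the sources used here, so reads of the overlap cannot be told apart.

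Zfp36l2 (BRF2, ENSMUSG00000045817, chr17:84183931-84187947, minus strand) is the other paralog and had 192.8, 216.3, 219.4 and 198.9 CPM in control libraries. With MAARS gapmeR it had 251.7, 224.2, 231.7 and 205.7 CPM. MAARS replicate 15 lay within the control range and the other MAARS libraries above it. The difference was 0.14 on the log2 scale (SE 0.066) and did not pass (edgeR adjusted p = 0.0981). It did pass without MAARS replicate 15 (0.19, adjusted p = 0.0344), with library totals (0.21, adjusted p = 0.012) and with upper-quartile factors (0.21, adjusted p = 0.0184).

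The difference between paralogs was also taken within each library, where the scaling between libraries cancels. The ratio of Zfp36 to Zfp36l1 CPM, not corrected for length, was 1.72, 1.69, 1.63 and 1.66 in control libraries and 0.83, 1.11, 1.146 and 0.96 in MAARS libraries. The mean difference in log2 CPM went from 0.74 ± 0.03 (SD, n = 4) to 0.004 ± 0.21 (n = 4), a shift of -0.74. Since both genes already had groups apart in opposite directions, separate groups in their difference followed from them, and the size of the shift is given as a description. The ratio was nearly constant among control libraries, although Zfp36 and Zfp36l1 each varied among them. Zfp36 against Zfp36l2 shifted by -0.52 and Zfp36l1 against Zfp36l2 by 0.22, both with groups apart (exact permutation p = 0.0286 each, and the same after adjustment over 4 pairs). The second of these lost its call when any one control library was left out, with exact permutation p-values of 0.0571 to 0.114.

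Taken per kilobase of exon, the summed level of the 3 genes was 103 ± 8.14 CPM per kb (SD, n = 4) in control and 109 ± 8.32 CPM per kb (n = 4) in MAARS libraries, with overlapping ranges. The share of Zfp36 in that sum was 24.8 to 26.5% in control libraries and 16.8 to 20.1% in MAARS libraries. Zfp36l1 had 16.7 to 18.2% and then 20.1 to 23.5%. Zfp36l2 held the largest share in each library, from 55.3 to 60.6%.

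**Figure D2:**
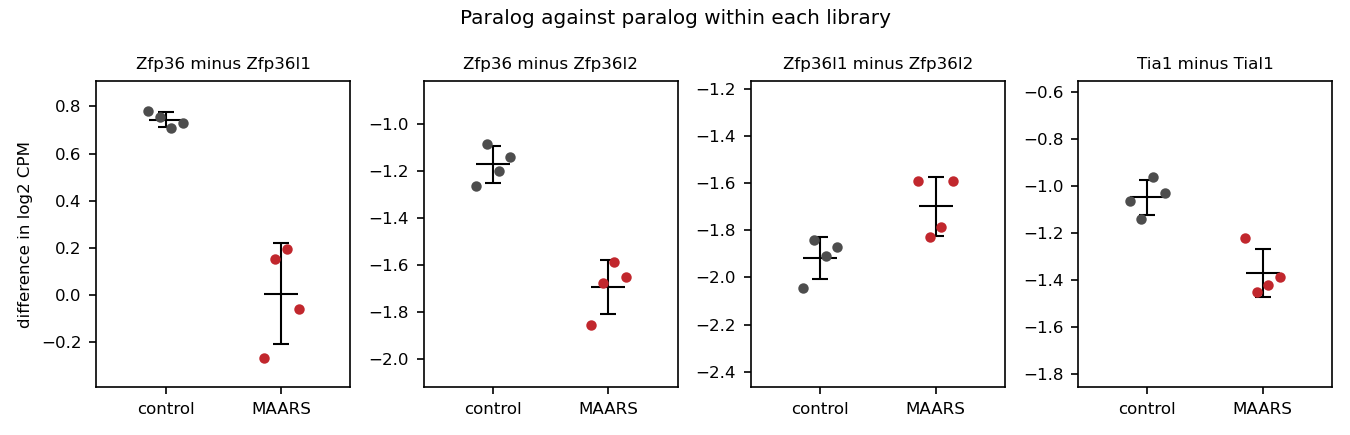
Difference in log2 CPM (y axis) between the 2 genes named above each panel, for the control and MAARS gapmeR libraries (x axis). Points are single libraries and bars the mean and SD (n = 4). The groups are apart in each panel, with Zfp36 minus Zfp36l1 moving from 0.74 to 0.004, and each y axis spans the same length without starting at 0.

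KSRP (Khsrp, ENSMUSG00000007670, chr17:57021051-57031522, minus strand) promotes decay through the exosome and also takes part in microRNA processing. Its control libraries had 88.3, 82.8, 84.3 and 80.4 CPM and its MAARS libraries 102.6, 105.5, 101.9 and 103.5 CPM. Every MAARS library lay above every control library. Khsrp rose by 0.30 on the log2 scale (SE 0.043, 95% interval 0.21 to 0.39; edgeR adjusted p = 0.000205), the smallest adjusted p of the 10.

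AUF1 (Hnrnpd, ENSMUSG00000000568, chr5:99955935-99978938, minus strand) competes with HuR for AU-rich mRNAs. It had 154.8, 147.1, 143.2 and 151.3 CPM with control gapmeR and 124.7, 138.5, 132.0 and 144.2 CPM with MAARS gapmeR. MAARS replicate 15 lay above control replicate 6, so the groups overlapped. Hnrnpd fell by 0.14 on the log2 scale (SE 0.052; edgeR adjusted p = 0.0398). The call was lost in 5 of the 8 fits that left out a library (control replicates 2 and 7 and MAARS replicates 9, 11 and 13), without the filter (adjusted p = 0.0617), and with library totals or upper-quartile factors (adjusted p = 0.277 and 0.234).

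TIA-1 (Tia1, ENSMUSG00000071337, chr6:86404219-86433405, plus strand) holds AU-rich mRNAs back from translation and gathers in stress granules. Tia1 was measured at 30.004, 27.9, 30.3 and 30.8 CPM in control and at 28.6, 23.8, 24.7 and 26.7 CPM in MAARS libraries. MAARS replicate 9 lay above control replicate 5 and the remaining MAARS libraries lay below all controls. Tia1 fell by 0.20 on the log2 scale (SE 0.068; edgeR adjusted p = 0.0324). The call was lost without control replicate 2, 6 or 7 or MAARS replicate 11 or 13 (adjusted p = 0.0668 to 0.0938), and with library totals or upper-quartile factors (adjusted p = 0.141 and 0.121).

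Its paralog TIAR (Tial1, ENSMUSG00000030846, chr7:128439777-128461717, minus strand) has a like role. Tial1 had 62.8, 61.8, 59.2 and 63.0 CPM in control libraries and 66.7, 65.1, 66.4 and 69.9 CPM in MAARS libraries. The groups were apart, with a rise of 0.12 on the log2 scale (SE 0.044; edgeR adjusted p = 0.0464). This call was lost in each of the 8 fits that left out a library (adjusted p = 0.0527 to 0.146), with DESeq2 (adjusted p = 0.0649) and without the filter (adjusted p = 0.188). The difference between Tia1 and Tial1 within a library shifted by -0.32 in log2 CPM, from -1.05 ± 0.07 (SD, n = 4) to -1.37 ± 0.10 (n = 4), with groups apart (exact permutation p = 0.0286). Leaving out control replicate 2, 6 or 7 raised that exact permutation p to 0.0571. Tia1 thus made up 16.5 to 18.3% of the summed level of both, per kilobase of exon, in control libraries and 13.8 to 15.8% in MAARS libraries. Per kilobase of the longest transcript these shares were 31.0 to 33.7% and 26.6 to 29.9%.

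CUGBP1 (Celf1, ENSMUSG00000005506, chr2:90940382-91019497, plus strand) binds GU-rich elements and speeds deadenylation. Control libraries had 84.4, 83.7, 79.2 and 77.6 CPM, and MAARS libraries had 102.5, 98.5, 96.5 and 102.6 CPM. Every MAARS value was above every control value. Celf1 rose by 0.30 on the log2 scale (SE 0.045, 95% interval 0.20 to 0.40; edgeR adjusted p = 0.000309).

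Regnase-1 (Zc3h12a, ENSMUSG00000042677, chr4:125118423-125127840, minus strand) cuts inflammatory mRNAs and is itself induced by inflammatory signals. It had 18.1, 22.01, 27.3 and 27.8 CPM in control and 14.6, 16.4, 14.2 and 15.3 CPM in MAARS libraries. The groups did not overlap, and the control libraries were spread more widely than the MAARS libraries. Zc3h12a fell by 0.65 on the log2 scale (SE 0.12, 95% interval -0.92 to -0.38; edgeR adjusted p = 0.00146), which makes it the member with the largest change. Its 3 nearest genes in pattern over the 8 libraries were Scarf1, Sfxn5 and Msl3l2, at root mean square differences of 0.08, 0.08 and 0.10 in centred log2 CPM. These fell by 0.68, 0.72 and 0.57 on the log2 scale (edgeR adjusted p = 0.000993, 0.00121 and 0.00345). They were picked by their pattern over the same libraries, so a like fall follows from the choice and is only a description.

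**Figure D3:**
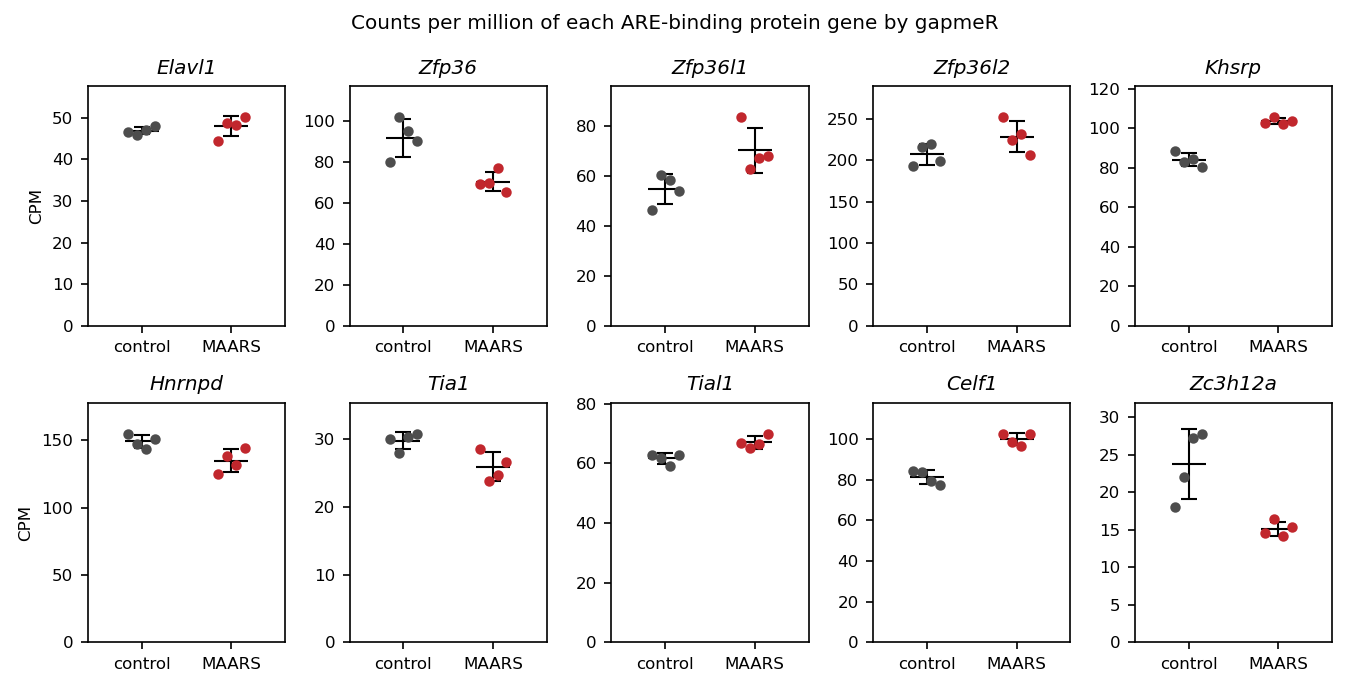
CPM (y axes, from 0) of each member in the 4 control and 4 MAARS gapmeR libraries (x axes). Points are single libraries and bars the mean and SD. The groups are apart for Zfp36, Zfp36l1, Khsrp, Tial1, Celf1 and Zc3h12a, and overlap for Elavl1, Zfp36l2, Hnrnpd and Tia1. The share of all genes with groups apart is not given here, so this separation does not set the members apart.

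Levels of different genes can be set side by side only per length of exon. Zfp36l2 was the most abundant member in control libraries at 58.6 ± 3.69 CPM per kb of exon (SD, n = 4), followed by Zfp36 at 26.5 ± 2.64. Hnrnpd (20.3), Khsrp (19.4) and Zfp36l1 (18.4) came next, with the ranges of neighbours overlapping, then Celf1 (9.62), Tial1 (8.94) and Zc3h12a (8.25). Zc3h12a (range 6.27 to 9.64) could not be told apart there from Tial1 or from Celf1 (range 9.19 to 10.0). Elavl1 had rank 9 at 4.52 ± 0.08 and Tia1 last at 1.89 ± 0.08 CPM per kb. In MAARS libraries Khsrp stood in rank 2 at 23.9 and Zfp36 in rank 4 at 20.3 CPM per kb, although Khsrp, Zfp36l1, Zfp36 and Hnrnpd each overlapped the next in order. The level of Elavl1 depended on the length used, since the longest transcript (5743 nt) in place of all exons (10363 nt) gave 8.16 CPM per kb in control libraries. Tia1 rose likewise from 1.89 to 6.65, yet in control libraries they kept ranks 9 and 10. By the longest transcript, however, the ranges of Elavl1 and Zc3h12a overlapped in control libraries. Tial1 (13.9) then stood above Celf1 (10.3) in control libraries with ranges apart, the reverse of their order per kb of exon. In MAARS libraries Elavl1, Tia1 and Zc3h12a then had ranks 8, 9 and 10, with Tia1 and Zc3h12a overlapping.

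The mRNAs that the study named or examined as HuR targets changed in both directions. Of 13, all tested, 3 rose (Ccna2, Ccnb1 and Cdkn1b), 6 fell (Ccnd1, Cdkn1a, Bax, Mcl1, Sirt1 and Casp8) and 4 did not pass. Their median log2 fold change was -0.15. With library totals or upper-quartile factors 4 were called higher and 3 lower, and without control replicate 6 the lower calls were 3. Over all genes 21.3% were called higher and 24% lower, against 23.1% and 46.2% here. The study examined some of these mRNAs under MAARS knockdown, so that the list is no independent evidence of a direction. In BMDMs it reported less Trp53, Cdkn1b, Casp8 and Casp9, and more Bcl2, Ptma, Mcl1 and Sirt1. Its methods give RT-qPCR for mRNA levels. In BMDMs given camptothecin to trigger apoptosis, it reported lower mRNA stability for Trp53, Cdkn1b, Casp8 and Casp9 and higher for Bcl2. It also reported more HuR binding to Bcl2, Ptma, Mcl1 and Sirt1 mRNAs. In the aortic intima it reported less Cdkn1b, Casp8, Casp9 and Bax, and more Bcl2, Ptma and Sirt1. In the RNA-Seq libraries used here Casp8 went the same way as in its BMDMs, while Cdkn1b, Mcl1 and Sirt1 went the other way. Trp53, Casp9, Bcl2 and Ptma did not pass.

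Among the cell cycle regulators, Cdkn1b (p27) had 36.4, 44.4, 39.4 and 37.9 CPM in control and 65.8, 56.1, 56.1 and 54.5 CPM in MAARS libraries, and rose by 0.56 on the log2 scale (edgeR adjusted p = 0.000164). Cdkn1a (p21), its relative, had 315.2, 363.6, 364.7 and 329.9 CPM and then 207.4, 239.4, 250.7 and 221 CPM. The groups of both genes were apart, in opposite directions, and Cdkn1a fell by 0.58 (edgeR adjusted p = 5.83e-05). Ccna2 (cyclin A2) rose by 1.00 from 39.8 ± 15.05 to 79.6 ± 7.43 CPM (SD, n = 4 each; edgeR adjusted p = 0.00204). Its control libraries were uneven, at 59.7, 41.8, 24.5 and 33.1 CPM. Ccnb1 (cyclin B1) rose by 0.89 (edgeR adjusted p = 0.00274), with control libraries between 18.9 and 38.6 CPM and MAARS libraries between 42.4 and 53.1 CPM. Ccnd1 (cyclin D1) fell by 0.79 (edgeR adjusted p = 0.0113), with overlapping groups of 105 to 179 and 53.5 to 115 CPM.

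The apoptosis genes of the list moved less. Bax, which permeabilises mitochondria, fell by 0.28 from 120 ± 5.14 to 99.0 ± 2.27 CPM (SD, n = 4 each; edgeR adjusted p = 0.000382). Casp8, the initiator caspase of death receptors, fell by 0.15 (edgeR adjusted p = 0.0196), and Sirt1, a deacetylase, by 0.19 (edgeR adjusted p = 0.0203). Mcl1, which opposes apoptosis, fell by 0.21 with overlapping groups (edgeR adjusted p = 0.0275). Mcl1 lost its call in 6 of 17 alternative fits, with library totals or upper-quartile factors and without control replicate 5 or 6 or MAARS replicate 11 or 15 (adjusted p = 0.061 to 0.0878). Casp8 and Sirt1 lost theirs in 4 each, with the same scalings (adjusted p = 0.0948 to 0.166), without control replicate 6, and without MAARS replicate 11 for Casp8 or 9 for Sirt1 (adjusted p = 0.0502 to 0.057). Ccnd1 lost its call with the robust prior (edgeR adjusted p = 0.06). Trp53 (0.07), Casp9 (-0.08), Bcl2 (-0.27) and Ptma (0.10) did not pass, with edgeR adjusted p-values of 0.318, 0.249, 0.168 and 0.143. The interval for Bcl2 ran from -0.61 to 0.06, at mean levels of 15.6 and 12.9 CPM.

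Cytokine and early-response mRNAs with AU-rich elements were mostly lower. Of 31 listed, 24 could be tested, and 17 fell, 2 rose (Ier3 and Vegfa) and 5 did not pass, with a median log2 fold change of -0.60. The lower and higher calls were 70.8% and 8.33% of those tested, against 24% and 21.3% of all genes, whose median was 0.01. Il6, Il12b, Il23a, Cxcl1, Cxcl3, Csf2 and Csf3 were too low to test. The chemokine Ccl4 had 57.4, 54.8, 56.9 and 55.1 CPM in control and 18.7, 23.9, 22.7 and 17.8 CPM in MAARS libraries, a fall of 1.43 on the log2 scale (SE 0.086; edgeR adjusted p = 3.7e-06). Ccl4, Il1a and Cxcl10 had 2, 3 and 3 ATTTA pentamers and no nonamer. Il1a, a cytokine of the interleukin-1 family, fell by 1.67 from 15.1 ± 0.94 to 4.75 ± 0.67 CPM (SD, n = 4 each; edgeR adjusted p = 4.79e-06). Cxcl10, an interferon-inducible chemokine, fell by 4.66, from 17.9, 26.6, 43.1 and 36.3 CPM to 0.90, 0.95, 2.21 and 0.87 CPM (edgeR adjusted p = 5.27e-06). Tnf, whose nonamers are shown above, went from a mean of 12.7 to 5.66 CPM and thus fell by 1.17 on the log2 scale (edgeR adjusted p = 1.9e-05). This direction held in the alternative fits, with 15 to 19 called lower and 2 or 3 called higher.

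Of 14 mRNAs known to be cut by Regnase-1, 7 could be tested. Nfkbiz, a nuclear regulator of NF-κB, fell by 0.57 with overlapping groups (edgeR adjusted p = 0.0144), and Rel, an NF-κB subunit, fell by 0.14 (edgeR adjusted p = 0.0365). Nfkbid had a log2 fold change of -0.16 (edgeR adjusted p = 0.182), and none of the 7 was called higher. The lower calls were 28.6% of the 7, near the 24% of all genes called lower, and 21.3% of all genes were called higher. Ptgs2 and Tfrc had estimates above 0 (0.09 and 0.08) that did not pass. The call of Rel was lost in 10 of 17 alternative fits.

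Whether AU-rich mRNAs moved as a class was described over all 11776 tested genes with an annotated 3′ UTR. Genes with 3 or more nonamers numbered 79, of which 20 were called higher (25.3%) and 20 lower (25.3%), with a median log2 fold change of 0.04. The 10802 genes with no nonamer were called higher in 22.2% and lower in 25.4%, with a median of 0.002. Those with 1 nonamer (761 genes) had 21.7% and 25.5%, and those with 2 (134 genes) had 16.4% and 22.4%. The differences between these classes were not tested. Within long 3′ UTRs (1853 nt or more), 23.2% of the 56 genes with 3 or more nonamers were called higher and 26.8% lower, against 25.1% and 23.4% of the 3325 with none. Within 3′ UTRs of 705 to 1852 nt, the 276 genes with at least 1 nonamer were called higher in 17.4% and lower in 30.4%, against 22.1% and 26.2% of the 3648 with none. Among these 276, the 227 with 1 nonamer had 15.9% and 31.3%, and the 18 with 3 or more had 27.8% in each direction. Within shorter 3′ UTRs, the 97 genes with at least 1 nonamer had 19.6% and 21.6%, against 19.9% and 26.3% of the 3829 with none.

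**Figure D4:**
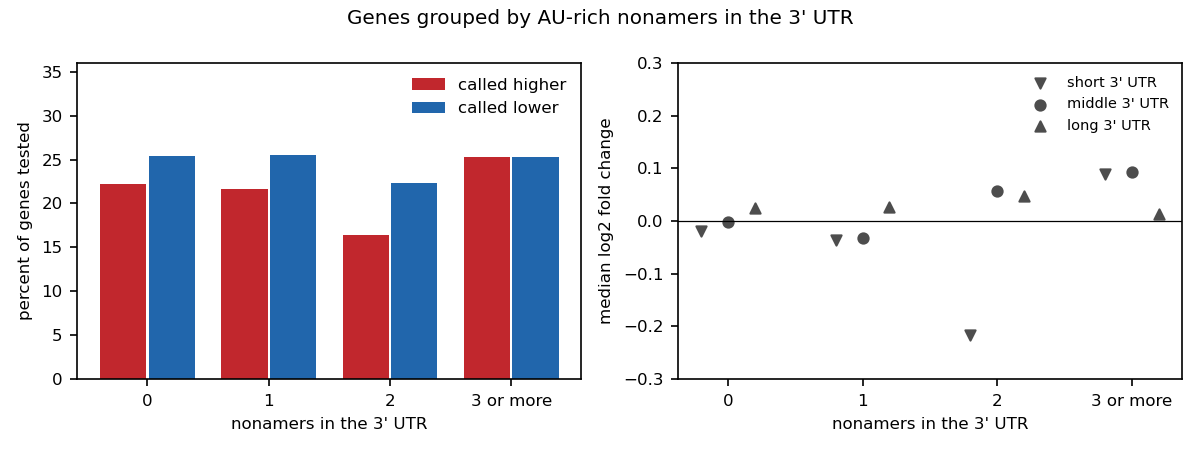
Left, percent of tested genes called higher (red) or lower (blue) by the number of nonamers in the 3′ UTR. Right, median log2 fold change by the same classes for short, middle and long 3′ UTRs (the genes split by length into 3 equal parts). Genes with 3 or more nonamers had 25.3% called in each direction, and the point at -0.22 stands for 8 genes.

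The proteins that carry out decay were measured beside these binding proteins. The RNA exosome degrades RNA from the 3′ end. Of the 15 tested genes of its list 9 fell (60%) and none rose, against 24% and 21.3% of all genes. All 15 estimates were below 0 (median -0.29), against 6393 of 13051 over all genes tested (median 0.01). Exosc8, a ring subunit, had 26.7, 25.5, 26.9 and 28.4 CPM in control and 18.7, 20.7, 20.7 and 20.3 CPM in MAARS libraries, a fall of 0.42 on the log2 scale (SE 0.061; edgeR adjusted p = 0.000238). Exosc10, its nuclear nuclease, fell by 0.29 and Exosc1, a cap subunit, by 0.38 (edgeR adjusted p = 0.000678 and 0.000713). In the alternative fits 7 to 10 of the list were called lower and none higher.

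Deadenylation genes went both ways, with 4 of 18 called higher (22.2%) and 5 lower (27.8%), against 21.3% and 24% of all genes, and a median of 0.00. Library totals or upper-quartile factors gave 7 higher and 2 lower, and the lower calls were 3 without control replicate 6 or MAARS replicate 13 and 2 without MAARS replicate 15. Pan2, the nuclease of PAN2-PAN3, rose by 0.76 from 8.72 ± 0.24 to 14.8 ± 0.92 CPM (SD, n = 4 each; edgeR adjusted p = 2.14e-05). Within CCR4-NOT, Cnot2 rose by 0.57 (edgeR adjusted p = 1.41e-05) while Cnot9 fell by 0.26 (edgeR adjusted p = 0.000357). Decapping genes split likewise, with 3 of 15 higher (20%) and 5 lower (33.3%). Both of those scalings turned this to 6 higher and 3 lower. Dcp2, the decapping enzyme, had 78.4, 80.2, 83.9 and 83.7 CPM in control and 50.8, 54.9, 57.9 and 48.4 CPM in MAARS libraries, a fall of 0.62 (edgeR adjusted p = 1.37e-05). Edc4, its scaffold, rose by 0.32 (edgeR adjusted p = 0.000713), and Lsm3, of the Lsm ring, fell by 0.36 (edgeR adjusted p = 0.00136).

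Of 29 other tested proteins that bind 3′ UTRs, 9 rose (31.0%) and 6 fell (20.7%), against 21.3% and 24% of all genes. Upper-quartile factors gave 13 higher and 4 lower, and library totals 12 and 4. Hnrnpa2b1, a heterogeneous ribonucleoprotein, rose by 0.65 from 397 ± 24.1 to 622 ± 20.8 CPM (SD, n = 4 each; edgeR adjusted p = 6.49e-06). Fubp3, a relative of Khsrp, rose by 0.34 (edgeR adjusted p = 9.92e-05), and Cpeb4, which regulates poly(A) tails, fell by 0.38 (edgeR adjusted p = 9.03e-05). The other Elavl genes were at most marginal, with Elavl2 and Elavl3 too low to test and Elavl4 under 1 CPM, so Elavl1 was the one Elavl transcript above that level.

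The signalling list had 6 of 21 called higher and 3 lower, in all 42.9% against 45.4% of all genes. The higher calls were 3 without control replicate 6 or 7 and 2 without MAARS replicate 11. Mapkapk2 (MK2), the kinase that phosphorylates tristetraprolin, had 219, 238, 238 and 225 CPM in control and 191, 189, 195 and 193 CPM in MAARS libraries, a fall of 0.26 (SE 0.042; edgeR adjusted p = 0.00049). Its relative Mapkapk3 fell by 0.26 (edgeR adjusted p = 0.00173), and Akt1, which phosphorylates Khsrp and Zfp36l1, rose by 0.30 (edgeR adjusted p = 0.000953). Both MK2-type kinases were thus lower with groups apart, and Akt1 higher with groups apart.

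Of 8 genes for the transport and modification of HuR, 4 rose (50%) and 2 fell (25%), against 21.3% and 24% of all genes. With library totals or upper-quartile factors 5 rose and none fell. Anp32a, a protein ligand of HuR, rose by 0.23 from 169 ± 5.38 to 197 ± 3.59 CPM (SD, n = 4 each; edgeR adjusted p = 0.000987). Tnpo2 (transportin 2), which carries HuR into the nucleus, rose by 0.18 (edgeR adjusted p = 0.0045). Xpo1 (CRM1), an exporter used by HuR ligands, fell by 0.20 (edgeR adjusted p = 0.00967), a call that was lost with library totals or upper-quartile factors. Transcript levels say nothing of where the HuR protein was.

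Around Tia1 and Tial1, 2 of 11 genes of stress granules and eIF2 kinases rose (18.2%) and 3 fell (27.3%), against 21.3% and 24% of all genes. With library totals or upper-quartile factors 4 rose and 2 fell. Eif2ak2 (PKR), the kinase activated by double-stranded RNA, had 186, 197, 210 and 195 CPM in control and 83.2, 109, 113 and 90.8 CPM in MAARS libraries, a fall of 0.99 (SE 0.089; edgeR adjusted p = 1.03e-05). Eif2s1, the eIF2 subunit it phosphorylates, fell by 0.44 (edgeR adjusted p = 7.39e-05), and Ddx3x, a helicase of stress granules, rose by 0.32 (edgeR adjusted p = 0.00064).

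**Figure D5:**
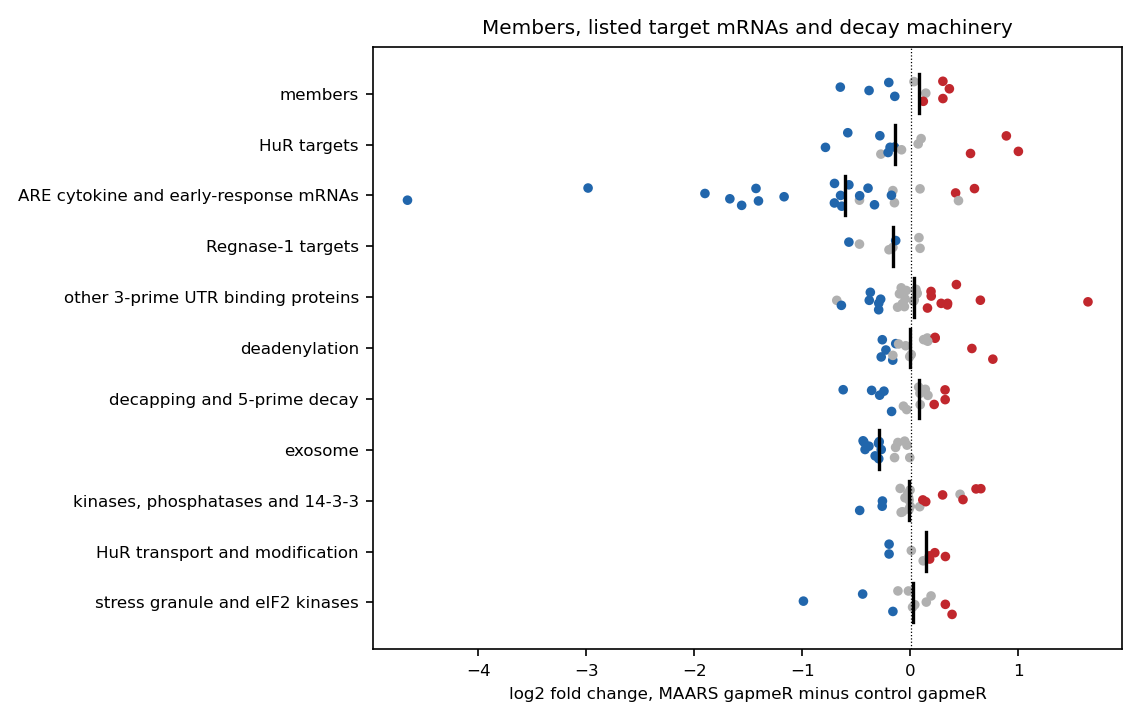
Log2 fold change (x axis, MAARS gapmeR minus control gapmeR) of each tested gene in the lists named at left. Red and blue points were called higher or lower, grey points were not called, black bars are list medians, and the dotted line is the median of all genes tested. The exosome list lies wholly below 0, with a median of -0.29, and the cytokine list has a median of -0.60.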

How the data were processed

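RNA-Seq of BMDMs after ribodepletion (paired reads of 100 nt) was used. Per the labels and the methods, the authors trimmed reads with Trimmomatic 0.36, aligned them with STAR 2.5.2b to mm10 (GRCm38) with Ensembl transcripts, and made raw counts per gene with featureCounts (Subread 1.5.2). The deposited counts were not normalized. Multi-mapping and strand settings are not given in the sources used here. Libraries were grouped by their labels.

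Counts were analysed in R 4.3.3 with edgeR 4.0.16 (filterByExpr with a minimum count of 10 and a minimum total of 15, TMM, quasi-likelihood test, Benjamini-Hochberg over 13051 genes). CPM values are TMM-scaled, and permutation tests used log2 CPM with a prior count of 2. Depth was 19287279 to 24541205 counts a library. In data simulated as a check of the fit, 90% of 200 changed genes were called among 12937, and 6.25% of the calls were unchanged genes. Whether these values hold for the libraries themselves, where 45.4% of the genes tested were called, was not tested. Replicates of a group differed by more than sampling noise (chi-square of 4.24 to 15.1 per gene). Names, lengths and sequence came from GENCODE M21, in which 99.5% of the genes were found.

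The members and lists were chosen with earlier results of these data known. Named were the members, MAARS, each HuR target, the 3 genes with the smallest p in every other list and the 3 nearest in pattern to Elavl1 and Zc3h12a, and further genes chosen after their values were seen. Alternatives were RLE or upper-quartile factors, library totals, DESeq2 1.42.0, limma-voom (limma 3.58.1), 1 surrogate variable (sva 3.50.0), robust priors, all genes unfiltered, genes with a mean from 10 counts up, each library left out, a prior count of 0.5, pentamers for nonamers, and longest transcripts for exon length.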

Additional observations from a re-analysis of the deposited data

Results flagged for a closer look

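In 6 of the 114 groups of 4 libraries (57 named genes in each condition), one library stood apart by more than Dixon's 95% critical value for the share of a group's range that the gap to the next library takes. Chance flags about 1 in 20 groups. No member of the group of RNA-binding proteins was among them. Cdkn1b was high in MAARS replicate 9, at 65.8 CPM against 54.5 to 56.1 in the others (0.864 of the range). Exosc10 was low in the same library, at 59.1 CPM against 65.2 to 65.8 (0.907). In MAARS replicate 13, Casp8 was high at 101 CPM against 92.9 to 94.2 (0.832) and Cxcl10 at 2.21 CPM against 0.867 to 0.955 (0.934). Ptma was high in control replicate 2, at 514 CPM against 459.9 to 468 (0.847), and Fubp3 in control replicate 5, at 41.8 CPM against 40.56 to 40.6 (0.968).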

How the results depend on the processing

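No paired analysis was possible because the groups share no replicate numbers. The call of MAARS and those of Zfp36, Zfp36l1, Khsrp, Celf1 and Zc3h12a held in all 17 alternatives, no named gene past the threshold reversed, and the count of members called higher stayed at 3 to 5. The count of members called lower was 2 with upper-quartile factors and with library totals, and 2 to 4 when a library was left out. Zfp36l2 was called with these 2 scalings (0.21 in each) and ran from 0.088 to 0.19 with a library left out. Hnrnpd was not called with upper-quartile factors (-0.082), library totals (-0.081) or no filter (-0.15), and ran from -0.18 to -0.11 with a library left out. Tia1 was not called with upper-quartile factors (-0.14) or library totals (-0.14), and ran from -0.25 to -0.16. Tial1 was not called with DESeq2 (0.12) or no filter (0.11), and ran from 0.10 to 0.13. Regnase-1 targets had 1 call with upper-quartile factors, library totals or DESeq2, and 1 or 2 with a library left out. Without the filter 3 of 12 such genes were called lower. Calls in the kinase list ran from 5 to 9 with a library left out, the 5 without MAARS replicate 11. With a library left out, Zfp36l1 minus Zfp36l2 ran from 0.18 to 0.26 and Tia1 minus Tial1 from -0.37 to -0.29. The 2938 genes with the most ATTTA pentamers per kilobase had a median log2 fold change of -0.022, against 0.04 for 3 or more nonamers. The causes were not tested. Both scalings shift the median of all genes by 0.06 on the log2 scale.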
